A study of Mus musculus with 32 samples.

Results

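The genes described here encode the electron transfer complexes of the mitochondrial inner membrane and cytochrome c, as far as the nucleus encodes them. They were taken by name, from symbols starting with Nduf, Sdha, Sdhb, Sdhc, Sdhd, Uqcr, Cox4i, Cox5, Cox6, Cox7 or Cox8, with Cyc1 and Cycs added and Cox7a1, Cox8b and pseudogene names left out. This gave 79 of the 20560 genes in the table. Complex I supplied 46 of them (7 core subunits, 30 accessory subunits, 8 assembly factors and Ndufb4c, a copy of Ndufb4), complex II 8 (4 subunits and 4 assembly factors), complex III 9, complex IV 15 and cytochrome c 1. The name rule therefore took in 12 assembly factors, which help to build complexes I and II and are not part of the finished enzymes, and they are counted apart below. The rule uses names and no measured values.

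Complex I takes electrons from NADH and complex II takes them from succinate. Both pass them through coenzyme Q to complex III, cytochrome c carries them on to complex IV, and complex IV hands them to oxygen. Complexes I, III and IV pump protons as they do so, and ATP synthase uses the resulting gradient. Complexes I, III and IV also hold subunits made from mitochondrial DNA, so their assembly needs the products of both genomes. Fat cells gain mitochondria as they form from precursors, and respiration then feeds lipid synthesis and breakdown.

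The data were RNA-seq libraries of 3T3-L1 cells, a mouse embryo line that turns from fibroblast-like preadipocytes into adipocytes in culture. Cells carried a control hairpin (shCtrl) or 1 of 2 hairpins against Zbtb9, which encodes a zinc finger protein with a BTB domain (shRNA 1 and shRNA 2). On each of days 0, 3, 7 and 11 there were 4 control libraries and 2 of each hairpin, 32 in all. Every culture was differentiated in the same way: a cocktail of dexamethasone, IBMX (a phosphodiesterase inhibitor) and insulin from day 0, insulin alone from day 3, and plain medium from day 7. The labels call the cells preadipocytes on day 0, premature adipocytes on days 3 and 7, and mature adipocytes on day 11. The labels call the replicates biological without saying how the cultures were separated, so p-values measure the spread between these libraries. A bulk library does not tell a larger share of cells with a transcript from more of it in each cell.

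The libraries held 22280321 to 31073716 reads in genes. Values below are normalised read counts, rebuilt from the deposited log2 values and divided by each library's size factor; differences (knockdown minus control, or as stated) and their standard errors are on the log2 scale of the deposited values. Zbtb9 itself was a low count gene. On day 0 its knockdown libraries held 4.622 to 10.62 normalised reads against 13.47 to 14.92 in control, and on day 7 they held 4.871 to 9.281 against 12.7 to 22.33. On days 3 and 11 the ranges overlapped, and the knockdown means were 50.6% and 54.5% of control. The 8 adipocyte markers summed to 47470 to 51560 normalised reads in the day 7 control libraries and 129700 to 200700 in the knockdown libraries. All 8 rose on each of days 3, 7 and 11, where 14.6%, 24.9% and 16.8% of all genes tested were called higher. The part of these markers in the results below was not tested. The 8 fibroblast markers summed to 276000 to 308600 on day 7 with knockdown and 311800 to 350500 in control. Of the 8, 6 fell, where 47.6% of all genes were called in either direction and 24.9% were called higher. On day 3, 2 fell and 1 rose, and on day 11, 5 fell, where 26.7% and 33.0% of all genes were called in either direction. Of 3 macrophage markers, Ptprc and Itgam held at most 3.036 and 7.949 normalised reads in any library, and Cd68, a lysosomal membrane protein, made up most of their sum of 8.346 to 583.7. Cd68 rose by 0.87 on day 7, from 35.43 to 57.29 reads in control to 78.14 to 124.1, and by 0.86 on day 11 (adjusted p = 0.000189 and 0.0284, limma), days on which the respiratory chain genes were also higher, and its part in the results was not tested. On day 11 the hairpins differed for Cd68, with shRNA 2 minus shRNA 1 at -0.77 (adjusted p = 0.0325, limma). The 3 endothelial markers summed to at most 46.68 reads and the muscle gene Ckm to at most 3.043. Of 5 brown adipocyte markers listed, 2 were tested on days 7 and 11. On day 7, 1 rose (0.71) and 1 fell (-0.52), and on day 11, 1 rose (0.7) and 0 fell. Their part in the results was not tested either.

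Respiratory chain transcripts were more abundant with Zbtb9 knockdown, most of all on day 7. Together the 79 genes took 5838 ± 137 RPM (reads scaled to equal library totals) in control libraries on day 7 (SD, n = 4) and 8458 ± 344 with knockdown (SD, n = 4). The control libraries lay between 5710 and 5970 and the knockdown libraries between 8116 and 8809, so the groups did not overlap. On day 0 the sums were 4387 ± 135 and 4571 ± 176, and the ranges overlapped. On day 3 they were 5428 ± 198 and 6142 ± 363, with every knockdown library above every control library. On day 11 they were 5208 ± 192 and 6073 ± 111 (SD, n = 4 per group on each day), again without overlap.

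**Figure D1:**
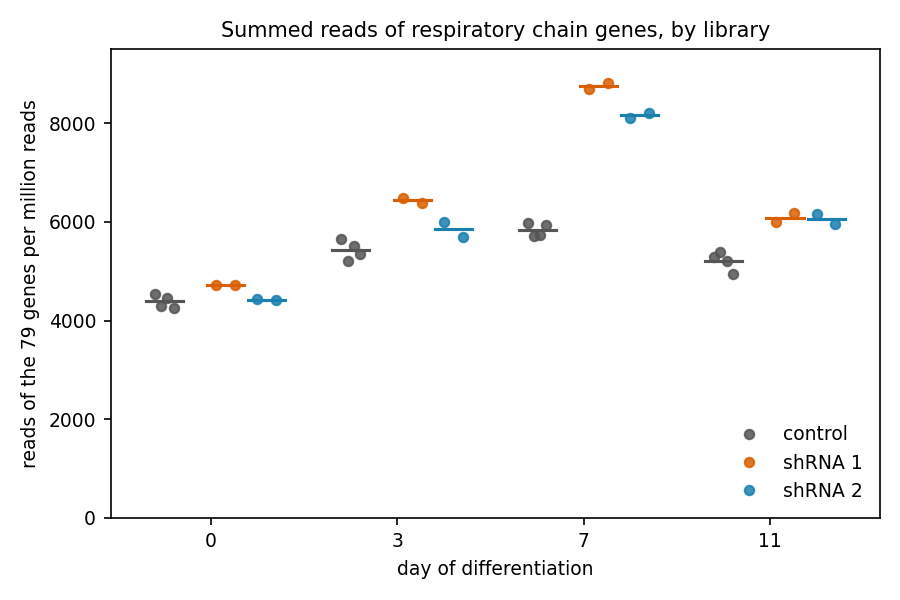
Reads of the 79 respiratory chain genes in RPM (reads scaled to equal library totals; vertical axis, from 0) by day of differentiation (horizontal axis). Each point is 1 library, each bar the mean of its group, with control in grey, shRNA 1 in orange and shRNA 2 in blue; the 4 knockdown libraries of day 7 sit between 8116 and 8809, above all other libraries.

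Of the 79 genes, 76 passed the filter on low values (a normalised value of at least 10 in at least 4 libraries) in every fit. Ndufb4c and the isoforms Cox4i2 and Ndufa4l2 did not. A gene was called when limma's moderated test, adjusted by the Benjamini-Hochberg method over all genes tested on that day, gave an adjusted p under 0.05. On day 0 no respiratory chain gene was called out of 76, where 3.25% of all genes tested were (0.817% higher); 14 had an unadjusted p under 0.05 in limma, and limma-voom on the rebuilt reads also called 0. With the hairpins as separate groups 19 were called, 15 higher and 4 lower. The share of all genes called in that fit is not given here, so the count of 19 is not a result about these genes. On day 3, 34 rose and 1 fell, where 26.7% of all genes were called in either direction and 14.6% were called higher. On day 7, 67 rose and 0 fell, where 47.6% of all genes were called and 24.9% were called higher. On day 11, 39 rose and 0 fell, against 33.0% of all genes called and 16.8% called higher. The median difference over the 76 genes was 0.04, 0.17, 0.49 and 0.20 on days 0, 3, 7 and 11, while that of all genes tested was within 0.012 of 0 on each day. On day 7, 65 of the 76 had all knockdown libraries above all control libraries, as did 23.3% of all genes tested. On days 0, 3 and 11 the counts were 5, 27 and 43, against 5.95%, 15.5% and 17.0% of all genes.

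The day 3 calls, in both directions together, depended on single libraries and settings. They numbered 21 without control replicate 2 or without control replicate 4, and 23 without either shRNA 1 replicate; without the filter they numbered 21, and without the trend and robust steps 20. The day 7 count stayed between 65 and 69 when any library was left out, and the day 11 count between 33 and 39.

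By time course, 24 genes rose on all of days 3, 7 and 11, and 39 rose on both days 7 and 11. A further 20 rose on day 7 and on no other day, among them Cox7a2l, which fell on day 3, and 71 of the 76 had their largest difference on day 7. The shares of all genes for these joint counts are not given here. Over all genes, too, day 7 had the most calls, with 26.7%, 47.6% and 33.0% called on days 3, 7 and 11. Ndufa12 and Sdhaf3 rose on day 3 and were not called on day 7. For neither did the change in the difference from day 3 to day 7 pass (0.03 and -0.13, adjusted p = 0.874 and 0.499, limma). Never called on any day were 7 genes: Cox6a2, Ndufaf2, Ndufaf3, Ndufaf5, Ndufaf8, Sdhaf1 and Uqcr11, of which 5 are assembly factors. Over the 12 assembly factors, 3, 6 and 1 rose on days 3, 7 and 11, with medians of 0.13, 0.24 and 0.13; all genes tested were called higher in 14.6%, 24.9% and 16.8% of cases, so the day 3 and day 11 counts are not a result about them. Over the 62 structural subunits and cytochrome c outside the isoform and supercomplex groups, 31, 60 and 38 rose, with medians of 0.18, 0.53 and 0.23. The difference between those groups was not tested.

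**Figure D2:**
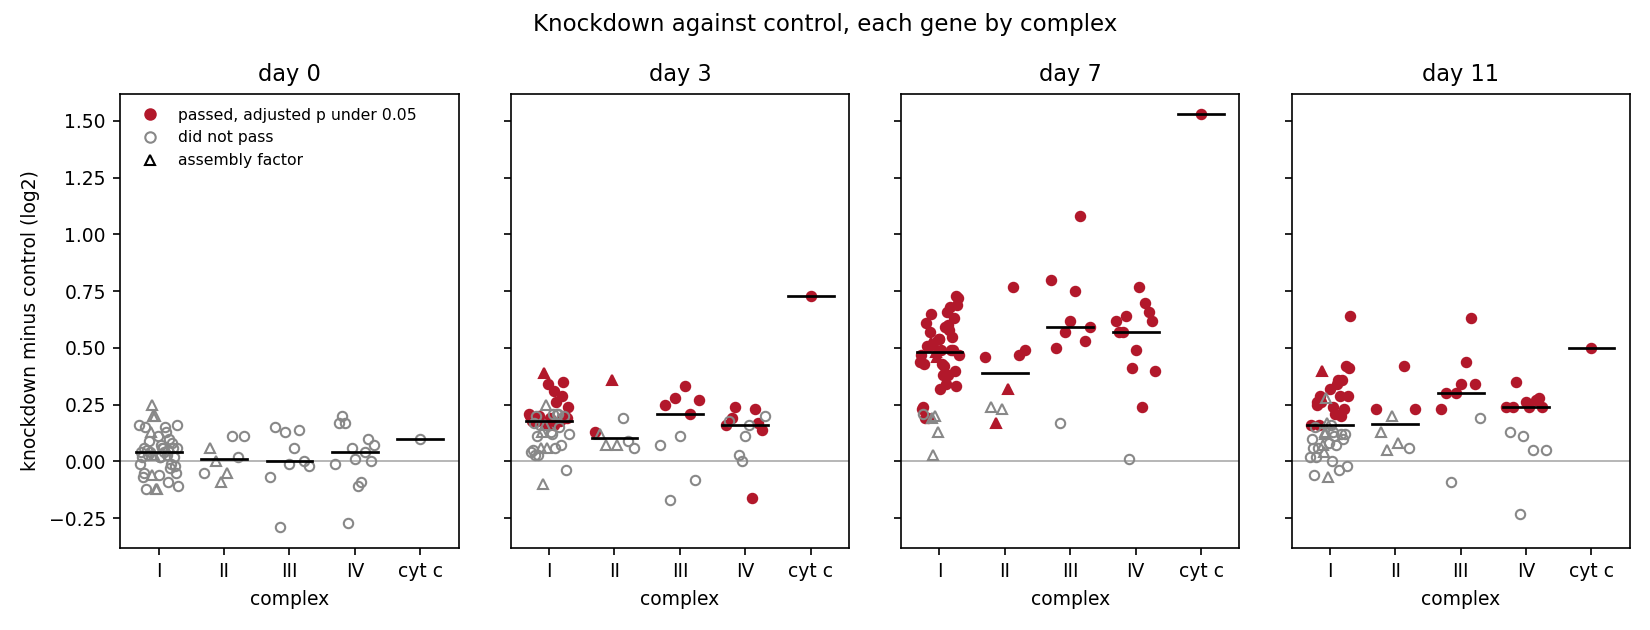
Knockdown minus control on the log2 scale (vertical axis) for the 76 genes tested, by complex (horizontal axis), in 1 panel per day. Filled red symbols passed at adjusted p under 0.05, open grey ones did not, triangles are assembly factors and bars are medians; on day 7 the medians run from 0.39 for complex II to 0.59 for complex III, and Cycs stands at 1.53.

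Cycs, which encodes the cytochrome c that shuttles between complexes III and IV, had the largest difference of the set on days 3 and 7. On day 3 its control libraries held 4221, 3879, 4165 and 3897 reads, its shRNA 1 libraries 6924 and 6911, and its shRNA 2 libraries 6877 and 6603. On day 7 control held 1524, 1356, 1430 and 1680, shRNA 1 held 5006 and 5269, and shRNA 2 held 3888 and 3938. Every knockdown library was above every control library on both days, and the day 7 control libraries had dropped to near their day 0 range of 1193 to 1278, while the knockdown libraries had not. The difference was 0.73 (SE 0.04, adjusted p = 9.89e-08, limma) on day 3 and 1.53 (SE 0.10, adjusted p = 1.81e-07, limma) on day 7, or 2.88-fold. On day 11 control held 1413, 1242, 1358 and 1200, shRNA 1 held 1936 and 1949, and shRNA 2 held 1757 and 1811, a rise of 0.50 (SE 0.06, adjusted p = 0.00013, limma). Cycs has 4 near-identical copies elsewhere in the annotation, the longest match being 946 bases of Gm10053 at 99.9% identity, so its count depends on how the authors treated reads that fit several places.

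In complex III, 8 of 9 subunits rose on day 7, and the median over the 9 was 0.59. Uqcrfs1, the Rieske iron-sulfur protein that takes electrons from coenzyme Q, held 2563, 2634, 2635 and 2588 reads in control libraries on day 7. Its shRNA 1 libraries held 6209 and 5951 and its shRNA 2 libraries 5055 and 5506. All knockdown libraries were above all control libraries, and the difference was 1.08 (SE 0.06, adjusted p = 1.71e-09, limma), or 2.11-fold. On day 11 Uqcrfs1 was still higher, with 3594, 3582, 3320 and 3326 reads against 2127, 2344, 2144 and 2141 in control (difference 0.63, SE 0.05, adjusted p = 5.65e-06, limma). The day 3 difference was 0.21 (adjusted p = 0.0127, limma) and the libraries overlapped.

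Cyc1, the haem-bearing subunit that passes electrons on to cytochrome c, followed a later course. On day 3 the control libraries held 4007, 3993, 3990 and 3637 reads and the knockdown libraries 3848, 4061, 4091 and 4474. Those groups overlapped, and the difference of 0.07 did not pass (adjusted p = 0.316, limma). On day 7 control held 3106, 3291, 3070 and 3136 reads, and knockdown held 5761, 5809, 4912 and 6018, a rise of 0.80 (SE 0.06, adjusted p = 4.02e-08, limma). On day 11 the rise was 0.23 (adjusted p = 0.00551, limma).

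The core proteins of complex III, Uqcrc1 and Uqcrc2, which form its base in the mitochondrial matrix, rose by 0.62 and 0.75 on day 7. Uqcrc2 held 3081, 2966, 3182 and 3339 reads in control libraries then, and 5547, 5597, 5139 and 5211 with knockdown, without overlap. It had risen already on day 3 (difference 0.33, adjusted p = 0.000221, limma), where Uqcrc1 stood at 0.11 and did not pass. The small subunits Uqcrb, Uqcr10, Uqcrq and Uqcrh rose by 0.57, 0.50, 0.59 and 0.53 on day 7. Uqcr11, another small subunit, was the exception at 0.17 (SE 0.24, 95% interval -0.30 to 0.64), and its hairpins differed, as described below.

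Promoters are shown for the 2 genes with the largest day 7 rises and for 3 subunit genes that hold the motif of NRF1, a transcription factor known for driving nuclear genes of the respiratory chain. Each is the 250 bases before the RefSeq start, 5′ to 3′ on the gene's strand, in GRCm38.p6. Capitals mark a match to TGACGTCA (the CREB1 motif) in Cycs and Uqcrfs1 and to the NRF1 motif in the other promoters; the reference builds used here may not be the authors' build. The Cycs stretch is chr6:50566570-50566819, Uqcrfs1 chr13:30545317-30545566, Cox6a1 chr5:115348959-115349208, Sdha chr13:74350241-74350490 and Sdhd chr9:50603850-50604099, all on the minus strand.
Cycs: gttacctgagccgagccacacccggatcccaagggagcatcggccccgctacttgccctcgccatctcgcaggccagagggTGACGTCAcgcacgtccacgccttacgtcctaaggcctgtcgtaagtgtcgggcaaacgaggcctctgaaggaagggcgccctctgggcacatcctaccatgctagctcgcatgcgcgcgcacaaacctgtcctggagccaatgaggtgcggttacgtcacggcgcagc
Uqcrfs1: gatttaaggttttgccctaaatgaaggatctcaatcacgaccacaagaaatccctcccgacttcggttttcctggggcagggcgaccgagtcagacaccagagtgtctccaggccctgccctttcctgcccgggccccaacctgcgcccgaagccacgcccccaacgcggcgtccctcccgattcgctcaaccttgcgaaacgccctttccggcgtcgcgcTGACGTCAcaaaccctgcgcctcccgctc
Cox6a1: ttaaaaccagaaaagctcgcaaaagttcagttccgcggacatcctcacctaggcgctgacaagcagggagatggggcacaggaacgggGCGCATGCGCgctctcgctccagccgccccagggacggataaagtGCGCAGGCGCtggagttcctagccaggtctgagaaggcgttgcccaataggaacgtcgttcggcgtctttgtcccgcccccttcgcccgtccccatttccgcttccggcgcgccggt
Sdha: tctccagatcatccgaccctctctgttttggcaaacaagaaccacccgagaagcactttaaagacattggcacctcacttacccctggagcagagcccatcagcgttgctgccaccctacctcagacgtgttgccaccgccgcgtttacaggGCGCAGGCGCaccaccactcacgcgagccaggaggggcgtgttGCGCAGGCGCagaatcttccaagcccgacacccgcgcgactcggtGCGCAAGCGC
Sdhd: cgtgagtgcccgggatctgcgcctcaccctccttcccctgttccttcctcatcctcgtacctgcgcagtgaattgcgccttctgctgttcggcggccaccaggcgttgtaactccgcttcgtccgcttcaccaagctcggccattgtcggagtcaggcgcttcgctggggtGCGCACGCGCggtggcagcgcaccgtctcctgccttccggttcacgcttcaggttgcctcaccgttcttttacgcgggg
The RefSeq table held 65 promoters of 63 of the 79 genes. In windows from 250 bases before to 50 after the start, searched on both strands, the NRF1 motif was present in 16 of the 65 (24.6%), against 4.60% of all 32851 promoters in the table. CCGGAAGT, the GABPA motif, was in 6.15% against 3.89%. The YY1 motif was in 7.69% against 0.852%, and TCAAGGTCA, the ESRRA motif, in 1.54% against 0.423%. TGACGTCA was in 7.69% against 1.79%; this motif was looked for after the Cycs and Uqcrfs1 stretches had been seen, and its other holders are Ndufa10, Ndufa11 and Ndufb2. No matches of different motifs overlapped in these promoters. The 15 genes with an NRF1 match had a median day 7 difference of 0.49, as had the 48 genes without one. The matches describe letters and show neither binding nor a cause.

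Complex II had 8 genes, of which 6 rose on day 7, with a median of 0.39. All 4 subunits were among them: Sdhb, the iron-sulfur subunit, by 0.77, and Sdha, Sdhc and Sdhd, the flavoprotein and the membrane anchors, by 0.46, 0.47 and 0.49. Sdhb held 1535, 1619, 1555 and 1610 reads in control libraries on day 7. With shRNA 1 it held 3081 and 2961, and with shRNA 2 2382 and 2625. The groups did not overlap (difference 0.77, SE 0.07, adjusted p = 2.9e-07, limma), and the shRNA 1 libraries were the higher ones. On day 11 Sdhb, Sdha and Sdhd rose by 0.42, 0.23 and 0.23, and Sdhc stood at 0.06 (adjusted p = 0.377, limma). Sdhaf3, which helps to put the iron-sulfur clusters into Sdhb, had its largest difference on day 3, with 505.4, 472.9, 465.7 and 385.4 reads against 344, 330, 370.5 and 333.8 in control (difference 0.36, adjusted p = 0.0054, limma).

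Complex I, with 45 genes tested, had 40 that rose on day 7 and a median of 0.48. All 7 core subunits, the nuclear-encoded part of its electron path, rose, with a median of 0.68. They ran from Ndufs8 at 0.33 to Ndufs7 at 0.73, both iron-sulfur subunits. Ndufv1, which binds the flavin that accepts electrons from NADH, rose by 0.69, and its partners Ndufv2 and Ndufs1 by 0.72 and 0.68. Ndufv2 held 2089, 2024, 2013 and 1987 reads in control libraries on day 7 and 3432, 3643, 3345 and 3254 with knockdown, with all knockdown libraries above all control ones. On day 11, 5 of the 7 were still higher, and Ndufs8 stood at -0.02 without passing.

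Of the 30 accessory subunits of complex I, 13, 29 and 14 rose on days 3, 7 and 11. Ndufa12 was the 1 that was not called on day 7 (0.21, adjusted p = 0.0814, limma). Ndufab1, the mitochondrial acyl carrier protein, rose by 0.65 and Ndufa9 by 0.57, while Ndufa7 rose by 0.19. Ndufv3, an accessory subunit next to Ndufv1 and Ndufv2, was 1 of 2 genes with their largest difference on day 11. Its control libraries held 3140, 3644, 3008 and 3427 reads on day 11 and its knockdown libraries 5403, 5545, 4812 and 5081, without overlap. That difference of 0.64 (SE 0.07, adjusted p = 3.72e-05, limma) was the largest of the set on day 11, and the day 7 difference was 0.47. The change between those days did not pass (0.17, adjusted p = 0.164, limma).

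The 8 assembly factors of complex I were mixed. On day 7 Ndufaf1, Ndufaf4, Ndufaf6 and Ndufaf7 rose by 0.52, 0.52, 0.48 and 0.46, and Ndufaf2, Ndufaf3, Ndufaf5 and Ndufaf8 stood at 0.19, 0.03, 0.20 and 0.13 without passing. Ndufaf4 was highest on day 3 in control and knockdown libraries alike. It held 793.2, 889.6, 861.3 and 886.6 reads in control libraries and 1064, 1080, 1246 and 1192 with knockdown on day 3, a rise of 0.39 (SE 0.06, adjusted p = 0.000489, limma). On day 7 the control libraries held 208.9 to 286.4 and the knockdown libraries 327.3 to 411.8.

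Complex IV had 13 genes tested, and all 11 widely expressed subunits rose on day 7, with a median of 0.62. Cox7a2, a small subunit, held 1196, 990.9, 1095 and 1147 reads in control libraries and 1941, 1882, 1901 and 2037 with knockdown. Its rise of 0.77 (SE 0.06, adjusted p = 7.58e-08, limma) was the largest in the complex, and no libraries overlapped. Cox4i1, Cox5a, Cox5b, Cox6a1 and Cox8a rose by 0.62, 0.57, 0.57, 0.64 and 0.62. Ndufa4, a complex IV subunit despite its name, rose by 0.40. On day 11, 8 of the 11 were higher, and Cox5a, Ndufa4 and Cox6b1 stood at 0.13, 0.05 and 0.11 without passing.

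Cox7a2l, which helps to join complexes III and IV into supercomplexes, was the 1 gene that fell on day 3. Control libraries held 4793, 4413, 4615 and 4497 reads then, and knockdown libraries 4379, 3993, 4249 and 3781. The groups did not overlap by a small margin, and the difference was -0.16 (SE 0.05, adjusted p = 0.0305, limma). It did not pass without control replicate 1, 3 or 4, shRNA 1 replicate 2 or shRNA 2 replicate 2 (adjusted p 0.0606 to 0.10, limma). On day 7 Cox7a2l rose by 0.24 (adjusted p = 0.000637, limma). The alternative isoforms of complex IV were low on day 7. Cox6a2, the isoform of heart and skeletal muscle, held 10.39 to 17.71 reads in day 7 control libraries and 8.118 to 19.48 with knockdown, and Cox4i2 and Ndufa4l2, both known to respond to low oxygen, held at most 7.949 and 12.79 reads in any library.

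**Figure D3:**
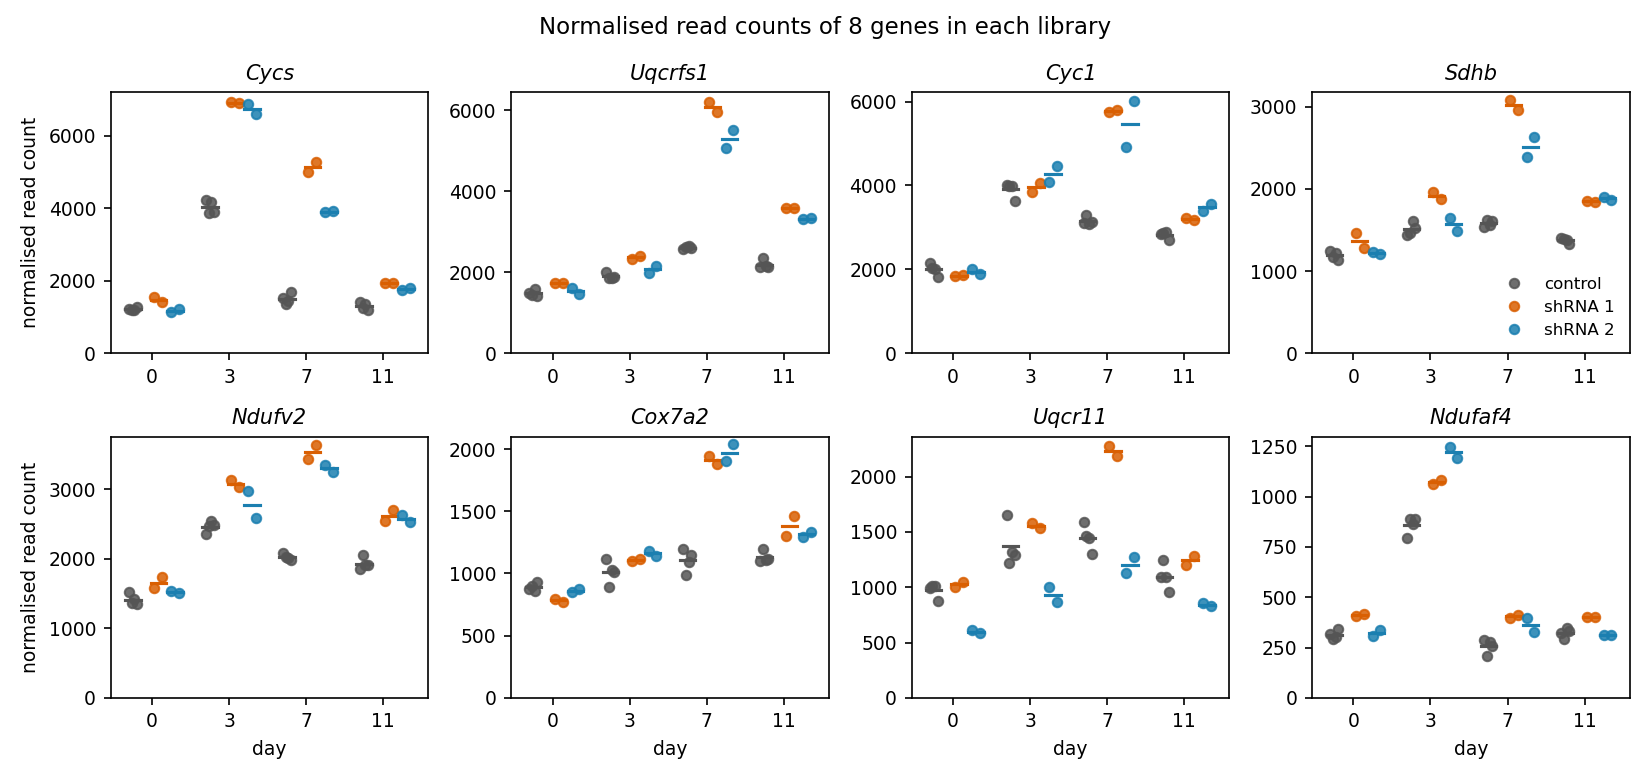
Normalised read counts (vertical axes, from 0) of 8 genes in every library by day (horizontal axes). Points are libraries and bars are means of control (grey), shRNA 1 (orange) and shRNA 2 (blue); Cycs is high on day 3 in all groups and stays high on day 7 with either hairpin, at 3888 to 5269 against 1356 to 1680, and Uqcr11 is low with shRNA 2 on every day.

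Compared by length (RPKM, reads per kilobase of exon scaled to library size), complex IV genes led the set. Length here is that of all exons annotated for a gene, over all its transcripts, so the order depends on the annotation used. In day 7 control libraries Cox8a had 388 ± 25.6 and Cox6a1 369 ± 12.6 (SD, n = 4), levels that did not differ beyond their spread. Uqcr10 at 174 ± 12.01 and Cox4i1 at 167 ± 7.75 came next and did not differ beyond their spread either. With knockdown the same 4 genes led, with 585 ± 9.47 for Cox8a, 566 ± 44.5 for Cox6a1, 252.5 ± 14.98 for Cox4i1 and 243 ± 19.3 for Uqcr10 (SD, n = 4). Uqcrfs1 was 6th of the 79 genes there, at 156 ± 11.3. The lowest of the genes that passed the filter were Sdhaf3, Ndufaf2 and Cox6a2, at 2.01, 1.98 and 0.81 in day 7 control libraries.

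The hairpins were also taken apart and compared with each other on each day. With shRNA 1 the median difference from control over the 76 genes was 0.06, 0.22, 0.55 and 0.20 on days 0, 3, 7 and 11, and with shRNA 2 it was 0.00, 0.10, 0.44 and 0.20; both were set against the same control libraries. Both hairpins lay above all control libraries for 5, 27, 65 and 43 genes. On day 7 shRNA 1 alone did so for 71 of 76 genes, where 33.1% of all genes tested did, and shRNA 2 for 67, where 29.2% did. In the direct test, shRNA 2 was lower than shRNA 1 for 17 genes and higher for 0 on day 0, where 16.4% and 18.6% of all genes were. The counts were 20 lower and 0 higher on day 3 (8.94% and 10.6% of all genes), 17 lower and 0 higher on day 7 (8.90% and 7.52%), and 3 lower and 3 higher on day 11 (10.4% and 11.6%). Of the 8 adipocyte markers, shRNA 2 was lower than shRNA 1 for 6 and higher for 0 on day 7 (median -0.46). On day 3 it was higher for 2 and lower for 0. Of the 8 fibroblast markers, shRNA 2 was higher for 6 and lower for 1 on day 3 (median 0.4), and higher for 3 and lower for 2 on day 7. The part of these markers in the hairpin counts was not tested. With 2 libraries a hairpin the respiratory chain counts, of both directions together, moved with single libraries. Without shRNA 1 replicate 1, replicate 2 or shRNA 2 replicate 1 the day 7 count was 8, 7 and 7. Without shRNA 1 replicate 1, replicate 2 or shRNA 2 replicate 2 the day 3 count was 5, 10 and 6. The day 0 count was 11, 11 and 10 without shRNA 1 replicate 1, shRNA 2 replicate 1 or shRNA 2 replicate 2. The day 11 count was 2, 3 and 3 without shRNA 1 replicate 2, shRNA 2 replicate 1 or shRNA 2 replicate 2.

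Uqcr11 separated the hairpins on every day. On day 7 it held 1585, 1463, 1449 and 1296 reads in control libraries, 2277 and 2186 with shRNA 1, and 1126 and 1274 with shRNA 2. The shRNA 1 libraries were above all controls and the shRNA 2 libraries below all of them. On day 0 the shRNA 2 libraries already held 612.2 and 587 reads, against 876.1 to 1012 in control and 1005 and 1050 with shRNA 1. The difference between hairpins was -0.73, -0.70, -0.86 and -0.53 on days 0, 3, 7 and 11 (adjusted p = 2e-09, 0.000296, 3.4e-08 and 0.000839, limma). Uqcr11 lies at chr10:80402997-80406830 in GRCm38. Cox5a and Ndufa4 were lower with shRNA 2 than with shRNA 1 on day 7 (differences -0.41 and -0.42), although both hairpins lay above all controls there: Ndufa4 held 2763 to 3113 reads in control, 4510 and 4668 with shRNA 1, and 3401 and 3361 with shRNA 2. On day 0 Ndufaf6, Uqcr11 and Ndufaf4 had the largest differences between hairpins (-0.73, -0.73 and -0.33). On day 11 Ndufaf3, Sdha and Ndufa13 were higher with shRNA 2 by 0.39, 0.22 and 0.21, and Uqcr11, Ndufaf4 and Uqcrq lower (differences -0.53, -0.32 and -0.22).

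**Figure D4:**
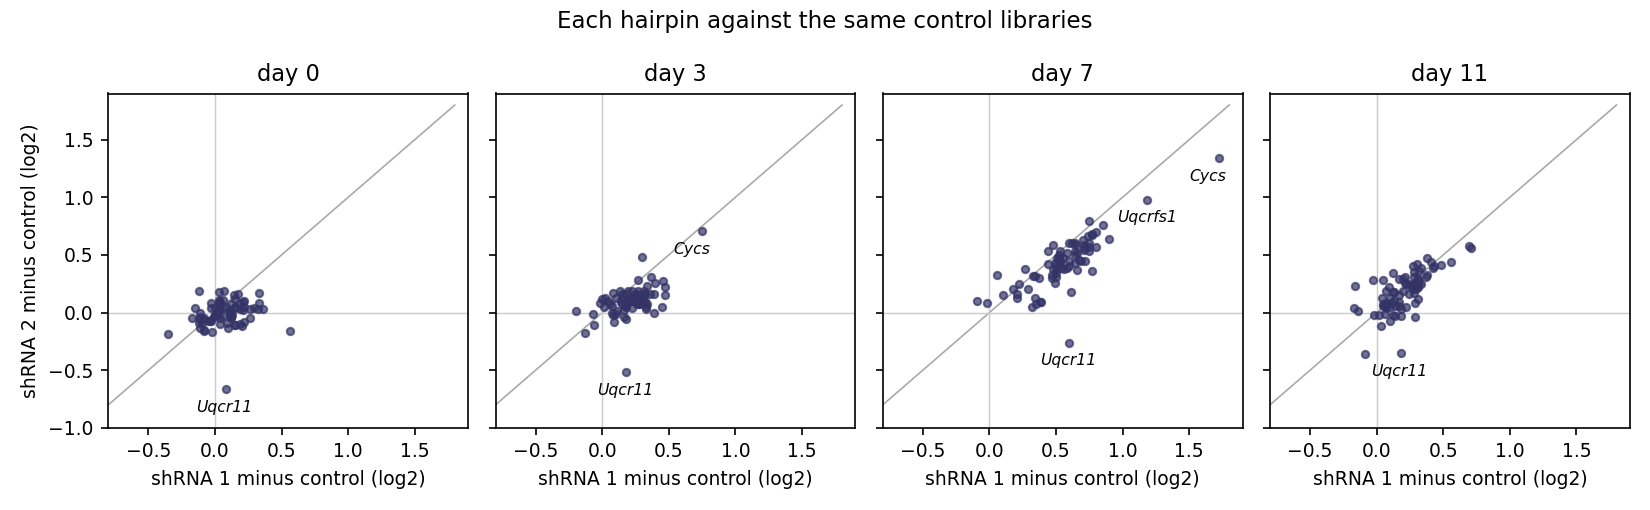
Difference from control on the log2 scale with shRNA 1 (horizontal axis) and shRNA 2 (vertical axis) for the 76 genes tested, 1 panel per day; both axes use the same 4 control libraries of the day, so the axes are not independent. The grey diagonal marks equal differences; on day 7 most genes lie above 0 on both axes, with Cycs at 1.72 and 1.34 and Uqcr11 at 0.60 and -0.26.

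Control cells alone show the course of these genes in differentiation. From day 0 to day 3, under the induction cocktail, 66 of 76 genes rose and 6 fell, where 76.6% of all genes tested were called, 38.3% higher and 38.2% lower; with libraries rescaled to equal totals, which shifts the median of all genes to -0.12, 52 rose and 6 fell. Cycs went from 1219, 1193, 1204 and 1278 reads to 4221, 3879, 4165 and 3897, a rise of 1.66 (SE 0.05, adjusted p = 7.79e-24, limma), or 3.15-fold. Ndufaf4 went from 294.5 to 344 reads up to 793.2 to 889.6 (1.34), and Cyc1 from 1824 to 2161 up to 3637 to 4007 (0.93). The largest falls were those of Cox6a2 (-0.55), Ndufaf3 (-0.40) and Ndufaf8 (-0.35). All 9 genes of complex III and all 4 subunits of complex II rose.

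From day 3 to day 7, when the cocktail had been replaced by insulin, 27 genes rose and 19 fell (74.2% of all genes called, 37.6% higher and 36.6% lower). The genes with the largest rises by day 3 fell back: Ndufaf4 fell by 1.60 and Cycs by 1.38 on the log2 scale, with no overlap between days. Ndufaf2 fell by 0.64 and Cyc1 by 0.30. Uqcrfs1, Uqcrc1, Sdha and Ndufa9 rose by 0.44, 0.43, 0.42 and 0.48, and the largest rises were those of Ndufaf3 (0.59), Ndufv3 (0.57) and Cox6a2 (0.53). From day 7 to day 11, after insulin was withdrawn, 8 rose and 37 fell (55.0% of all genes called, 28.9% higher and 26.1% lower), with a median of -0.13. Ndufv3, Ndufaf7 and Cox6a1 fell most, by 0.45, 0.42 and 0.40 on the log2 scale. Cox6a2 rose by 1.01, from 10.39 to 17.71 reads up to 45.51 to 63.67, and Ndufaf4 and Ndufaf8 rose by 0.30 and 0.24. These steps share the libraries of the day between them. In control from day 7 to day 11, 5 of the 8 adipocyte markers fell and 3 rose (median -0.41). Of the 8 fibroblast markers 6 rose and 2 fell (median 0.28), and Cd68 rose by 1.63. The part of these markers in this step was not tested.

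Whether the knockdown difference itself changed between days was tested as an interaction. From day 0 to day 3 it grew for 6 genes and shrank for 0 (6.57% of all genes called, 3.69% higher and 2.88% lower). Cycs grew by 0.63 (adjusted p = 0.000745, limma), Sdhaf3 by 0.46 and Ndufa6 by 0.30. Sdhaf3 kept its call in 13 of 16 fits with 1 library left out and Ndufa6 in 5 of 16 (adjusted p up to 0.106, limma). That count was 3 without day 0 control replicate 1 or 4 or day 3 control replicate 2 or 4, 2 without day 3 shRNA 1 replicate 1, and 10 without day 3 shRNA 2 replicate 2. From day 3 to day 7 it grew for 49 and shrank for 0 (23.1% of all genes called, 12.9% higher and 10.2% lower), most for Uqcrfs1 (0.87), Cycs (0.79) and Cyc1 (0.73). The genes included all 7 core subunits of complex I, all 4 subunits of complex II and 8 of 9 of complex III. Of these, Uqcrq and Uqcr10 each kept their call in 6 of 16 fits with 1 library left out (adjusted p up to 0.117 and 0.121, limma). From day 7 to day 11 the knockdown difference shrank for 44 and grew for 0 (12.7% of all genes called, 5.05% higher and 7.66% lower). The changes were -1.03 for Cycs, -0.57 for Cyc1 and -0.53 for Cox7a2 (adjusted p = 4.14e-07, 7.35e-06 and 4.12e-05, limma). The last 2 steps share the day 7 libraries.

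Other genes of oxidative phosphorylation were taken as lists, to be read against the 14.6%, 24.9% and 16.8% of all genes tested that were called higher on days 3, 7 and 11. The day 3 counts of the coenzyme Q, complex I assembly and complex III assembly lists, and the day 11 counts of the cytochrome oxidase and complex III assembly lists, are near those shares. Of 18 ATP synthase genes, which encode the enzyme that the proton gradient drives and its inhibitor, 11, 16 and 8 rose on days 3, 7 and 11, and their median on day 7 was 0.54. Atp5b, the catalytic beta subunit, rose by 0.82 and Atp5k, a small membrane subunit, by 0.76 on day 7. Atpif1, the inhibitor of the enzyme, fell by 0.17 on day 7 and by 0.34 on day 11 on the log2 scale. Of 17 cytochrome oxidase assembly genes, 6, 10 and 3 rose and 0 fell on days 3, 7 and 11, led on day 7 by Cox11 (0.77) and Cox10 (0.47), which act in copper delivery and haem synthesis. Of 12 genes of coenzyme Q synthesis and use, 2, 8 and 6 rose and 0 fell, with Coq8a at 1.05 on day 7 and 1.21 on day 11. Of 8 further complex I assembly genes 2, 6 and 4 rose, led on day 7 by Tmem70 (0.63) and Foxred1 (0.50), and Tmem186 fell on day 7 by 0.33 on the log2 scale. Of 6 complex III assembly genes 1, 4 and 1 rose, with medians of 0.05, 0.22 and -0.03, and on day 7 Uqcc1 stood at 0.44 and Ttc19 at 0.32.

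Transcripts of the mitochondrial genome were mostly lower with knockdown on day 7. Of 10 mitochondrially encoded subunit genes tested, 6 fell and 1 rose on day 7, with a median of -0.28, where 47.6% of all genes were called in either direction. The cytochrome b gene mt-Cytb and mt-Nd1 fell by 0.53 and 0.43 on the log2 scale (adjusted p = 3.36e-05 and 0.00393, limma). mt-Nd1 held 28040 to 31080 reads in control libraries and 17150 to 26240 with knockdown, without overlap. mt-Co1 held 97190 to 107600 against 83720 to 104500, and its fall of 0.17 passed (adjusted p = 0.0396, limma) although the ranges overlapped. mt-Nd6, the gene read from the opposite strand, rose by 0.64 on day 7 and by 0.77 on day 11, and without a stated strand setting its reads cannot be told from reads antisense to it. On day 11 it was the 1 called gene of the 10, and on day 3 mt-Nd4 and mt-Nd1 fell by 0.19 and 0.15 on the log2 scale. The difference between the nuclear and the mitochondrial lists was not tested.

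Of 12 regulators of mitochondrial biogenesis, 5 rose and 2 fell on day 7, with a median of 0.18; 47.6% of all genes were called then, so the count says little about the list. Ppargc1b, a coactivator of nuclear receptors and NRF1, held 182.4 to 226.3 reads in control libraries and 622 to 776.3 with knockdown, a rise of 1.65 (SE 0.09, adjusted p = 1.75e-09, limma). It had risen by 0.90 on day 3 and stood at 1.65 again on day 11. Esrra, the nuclear receptor that works with these coactivators, rose by 0.54 on day 7 and 0.37 on day 11. Ppargc1a, the related coactivator best known from brown fat, rose by 0.48 on day 3 and fell by 0.52 on the log2 scale on day 7, with 136 to 274.8 reads against 248.3 to 288 in control. On day 11 its knockdown libraries spread from 90.84 to 495.4. The hairpins differed for Ppargc1a, which was higher with shRNA 2 than with shRNA 1 by 0.61 on day 7 and 1.60 on day 11 (adjusted p = 0.00283 and 0.000929, limma). Pprc1, the third coactivator of the family, fell by 0.41 on day 7 and by 0.23 on day 11. Nrf1 itself rose by 0.21 and Tfam, which packs and transcribes mitochondrial DNA, by 0.34 on day 7, while Gabpa (0.04) and Yy1 (0.09) did not pass.

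**Figure D5:**
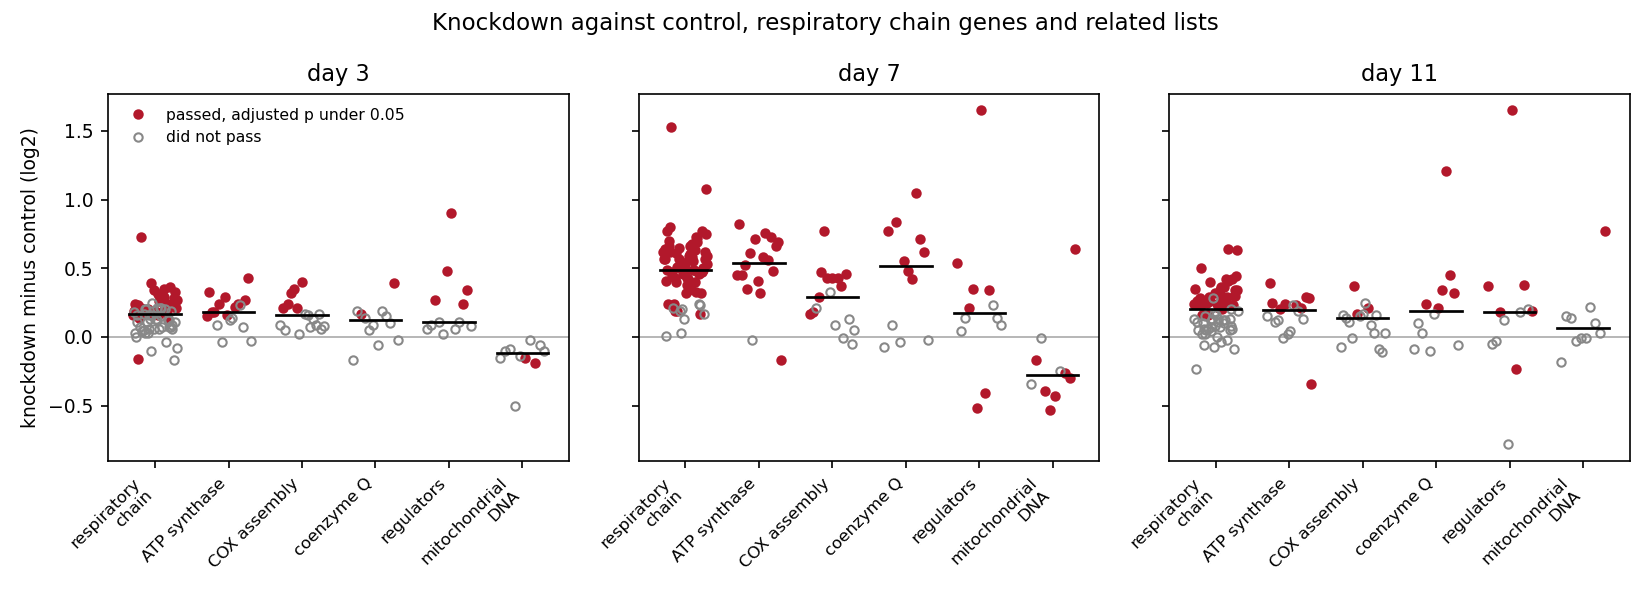
Knockdown minus control on the log2 scale (vertical axis) for the 76 respiratory chain genes and 5 related lists (horizontal axis), in 1 panel for each of days 3, 7 and 11. Filled red points passed at adjusted p under 0.05, open grey ones did not and bars are medians; on day 7 the respiratory chain and ATP synthase medians are 0.49 and 0.54 and that of the mitochondrially encoded subunits is -0.28.

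Some counts rest on sequence that other genes share. In the GENCODE M21 annotation (GRCm38), 18 of the 79 genes have a copy of at least 200 bases at 95% identity or more elsewhere, and 13 share over 10% of their exon bases with another gene. Among the genes named above, Cycs, Uqcrb, Cox5b, Cox7a2l, Ndufab1, Ndufa12, Ndufaf2, Ndufb2, Ndufb4 and Ndufb4c have such copies. On the other strand Sdhaf1 shares 69.6% of its exon bases with another gene, Ndufaf2 65.6%, Ndufa13 30.0%, Uqcrc2 19.7%, Cox5a 12.8% and Cox6a2 10.3%, and the strand setting of the counting is not given in the sources used here. Uqcrfs1, Cyc1, Sdhb, Ndufv2, Ndufv3 and Cox7a2 have neither.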

How the data were processed

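RNA was measured by RNA-seq in 32 libraries of 3T3-L1 cells, grouped by the labels. Per the submitters' processing notes the tools included TopHat2 2.1.0, Bowtie2 2.2.6, SAMtools 1.3.1 and HTSeq 0.6.1; the genome build, annotation and strand setting are not given in the sources used here. The deposited table holds log2 values for 20560 genes, from -1.56 to 17.99, which have the form of a regularised log transform of counts (from the values; no label names it), a form that pulls low counts towards the gene's mean and so understates folds. That form was inverted: 95.87% of all values and 98.38% of those of the 79 genes came within 0.1 of a whole read, where chance gives 20%; 68 of the 79 did so in every library. Tests used limma 3.58.1 (trend and robust) in R 4.3.3 on the deposited values, per day for knockdown and hairpin comparisons and over the days compared otherwise, with Benjamini-Hochberg adjustment. Alternatives were other scalings, filters, offsets, groupings, single libraries left out and limma-voom on the rebuilt reads. The scripts were tested on simulated data first. Near-identical copies were found with BLAST 2.17.0. Named in the text are genes from a fixed list of 26 subunits (1 result is not reported here), the 3 largest rises and falls per comparison, called genes of a minority direction of at most 5 and, of each list, the 2 largest rises and falls on days 7 and 11; the other regulators and small subunits were named after their values were seen. The 79 genes and the lists were chosen with earlier results of these data known. No sequence of the encoded proteins was used here.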

Additional observations from a re-analysis of the deposited data

Results flagged for a closer look

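Of 192 groups of 4 libraries examined, 6 held a library that stood apart from the other 3 by Dixon's criterion, which chance alone meets in about 1 group in 20. They were Sdha in day 11 control replicate 1 (5436 normalised reads), Uqcrfs1 in day 11 control replicate 2 (2344) and Cox7a2 in day 11 control replicate 2 (1198), all higher than the rest. The low ones were Uqcrc1 in day 3 shRNA 2 replicate 1 (4046 normalised reads), Cyc1 in day 3 control replicate 4 (3637) and Cycs in day 3 shRNA 2 replicate 2 (6603).

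The knockdown difference changed between days by an interaction test for the following genes (log2 scale, limma). From day 0 to day 3 it changed by 0.63 for Cycs, 0.30 for Ndufa6 and 0.46 for Sdhaf3 (adjusted p = 0.000745, 0.0412 and 0.0196). The Ndufa6 call held only without day 0 control replicate 2, day 0 shRNA 1 replicate 1, day 3 control replicate 3 or either day 3 shRNA 2 replicate, and was lost in the other 11 of 16 fits that leave out 1 library (adjusted p up to 0.106, limma). The Sdhaf3 call was lost without day 0 control replicate 1 or 4 or day 3 shRNA 1 replicate 1 (adjusted p 0.0549, 0.0513 and 0.0509, limma). From day 3 to day 7 it changed by 0.73 for Cyc1, 0.79 for Cycs and 0.87 for Uqcrfs1 (adjusted p = 2.92e-08, 6.43e-06 and 3.84e-09). From day 7 to day 11 it changed by -0.53 for Cox7a2, -0.57 for Cyc1 and -1.03 for Cycs (adjusted p = 4.12e-05, 7.35e-06 and 4.14e-07).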

How the results depend on the processing

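Counts below are of respiratory chain genes called in either direction. The day 7 knockdown count of 67 was 62 to 71 under every setting tried. Of 7211 values for single genes under other settings, none reversed, 6820 stayed on the same side of the threshold, 305 lost a call and 86 gained one. With the hairpins as separate groups the day 0 knockdown count went from 0 to 19 and the day 0 to 3 interaction from 6 to 19. The shares of all genes called in those fits are not given here. Without the filter on low values the counts were 21 for day 3 knockdown, 5 and 11 for shRNA 2 against shRNA 1 on days 3 and 7, and 3 for the day 0 to 3 interaction. Without the trend and robust steps they were 20 for day 3 knockdown, 10, 2, 3 and 3 for the hairpins on days 0, 3, 7 and 11, and 3 for that interaction. Rescaling to equal totals gave 10 for the hairpins on day 7 and 3 for that interaction. Over all genes it also took the percentage of higher ones among the calls from 25.1% to 43.3% for day 0 knockdown, 50.1% to 38.6% for control day 3 against day 0, 45.8% to 61.9% for the hairpins on day 7, and 56.2% to 42.4% and 55.9% to 45.3% for the first and second interactions. For day 7 and day 11 knockdown it took them from 52.4% to 44.7% and from 50.8% to 44.4%, with 65 and 35 respiratory chain genes called. The causes were not tested. With the replicate number as a block (replicate block) the knockdown counts were 0, 4, 62 and 16 on days 0, 3, 7 and 11. Nothing in the labels pairs the numbers. Same-numbered libraries of a day correlated at 0.00 to 0.23, over 0.1 in 3 of 24 pairs. Those pairs were all on day 11, each of a control and a hairpin library (0.23, 0.13 and 0.16). Control libraries correlated best with their own number in 16 of 48 comparisons with another day. Leaving out 1 library gave 0, 21 to 46, 65 to 69 and 33 to 39 for knockdown on days 0, 3, 7 and 11, and 10 to 22, 5 to 23, 7 to 21 and 2 to 5 for the hairpins. It gave 69 to 73, 44 to 49 and 41 to 50 for the control steps, and 2 to 10, 42 to 51 and 33 to 48 for the interactions. Where it left a hairpin with 1 library, that library was assumed to vary like the others of the fit. Low counts limit Zbtb9, Cox6a2 and the genes under the filter.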
